A study of Mus musculus with 4 samples.

Results

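The SPSB and SOCS genes encode proteins that end in a SOCS box, and 10 of them were followed here in cultured mouse muscle stem cells (MuSCs) that had been exposed to bone morphogenetic protein 6 (BMP6) for 1 h. The genes are Spsb1, Spsb2, Spsb3, Spsb4, Socs1, Socs2, Socs3, Socs5, Socs6 and Cish. They were picked by name from the 55267 entries of the gene table, and the BMP6 comparison was already known when they were chosen by that list. Their differences between BMP6 and control are therefore given as a description, and where they are counted among the calls made across the whole table this is a tally and no test of them. Each name matched 1 entry, and no entry of the 10 held transcripts of another named gene.

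A SOCS box binds the adaptor proteins Elongin B and Elongin C and, through them, a Cullin-5 ubiquitin ligase, so that whatever the rest of the protein binds can be ubiquitinated. In SOCS proteins and CIS (the product of Cish) the binding part is an SH2 domain, which docks onto phosphorylated cytokine receptors. Several of them are induced by STAT factors and then dampen the same JAK-STAT pathway. In SPSB proteins the binding part is a SPRY domain, whose known partners include inducible nitric oxide synthase and the apoptosis regulator Par-4. SPSB1 is also known to act on the type II TGF-β receptor.

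RNA was measured by RNA-seq in 2 libraries from BMP6-treated cells and 2 from controls. Cells came from forelimb, hindlimb, dorsal and breast muscle of 9-week-old female C57BL/6N(Tg(Pax7-EGFP)Tajb) mice, whose reporter is driven by the Pax7 promoter and was used for sorting. They were expanded at 3% O2 in medium with 15% FBS, 10 ng/mL LIF and 2.5 ng/mL bFGF. Both groups were then held for 6 h without serum and with 200 ng/mL of a soluble BMP receptor (BMPR-1A-Fc) that captures BMPs, before BMP6 at 100 ng/mL, or as control the vehicle of 4 mM HCl and 0.1% BSA, was added for 1 h. LIF, itself a ligand of the JAK-STAT pathway, was thus part of the earlier medium of all 4 libraries. In the labels a batch equals a replicate number and holds a BMP6 library and a control library, so libraries of the same number form pairs. The labels call the replicates biological, and whether each came from its own animals is not given in the sources used here.

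The libraries were alike in depth, with rebuilt read numbers of 108.1 to 112 in units of 1000000 and 13002 to 13203 entries at or above 1 TPM (transcripts per 1000000). Myod1 and Myog, regulators of the myogenic lineage, lay at 536 to 631 and 4400 to 5472 TPM. Pax7, which marks the stem cell state, lay at 8.29 to 11.7 TPM. The 4 endothelial markers and the 4 Schwann cell markers summed to at most 0.298 and 0.601 TPM in any library, and the 5 immune markers, led by Cd68, summed to between 0.993 and 1.79 TPM. The 6 fibro-adipogenic markers summed to 428 and 309 TPM after BMP6 and to 427 and 353 TPM in controls, most of it from the collagen gene Col1a2. The markers were uneven over the 4 libraries. The collagen genes Col1a2, Col3a1 and Col1a1 lay at 186 to 240, 69.45 to 109 and 34.3 to 62.85 TPM. Ly6a lay at 18.7 to 24.1 TPM, Dcn at 0.955 to 1.92 TPM and Pdgfra at 0.053 to 0.164 TPM. The 4 pericyte or smooth muscle markers summed to 8.61 and 9.44 TPM after BMP6 and to 7.04 and 8.27 TPM in controls. In such bulk samples, fewer cells of a type and less RNA per cell cannot be told apart.

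The genes differed widely in level in control cells. Socs2, a regulator of growth hormone signalling, was the highest with 134 ± 4.58 TPM (SD, n = 2), followed by Spsb2 with 74.9 ± 7.08 TPM. Socs3, an inhibitor of gp130-type cytokine receptors, had 17.6 ± 0.409 TPM, Spsb1 had 15.1 ± 1.83 TPM and Socs6 had 11.3 ± 0.801 TPM. The remaining genes were low, with 5.75 ± 0.329 TPM for Spsb3, 4.30 ± 0.252 TPM for Socs1, 3.37 ± 0.349 TPM for Spsb4 and 1.77 ± 0.430 TPM for Socs5. Cish was close to absent with 0.0527 ± 0.0195 TPM. TPM is scaled to transcript length, which allows levels to be set side by side, although those of Socs2, Socs6 and Spsb3 are uncertain because their reads can be shared with other genes, as given with each. No neighbours in this order overlapped between their control libraries. In the BMP6 libraries Spsb1 stood above Socs3, and Socs1 and Spsb3 overlapped.

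**Figure D1:**
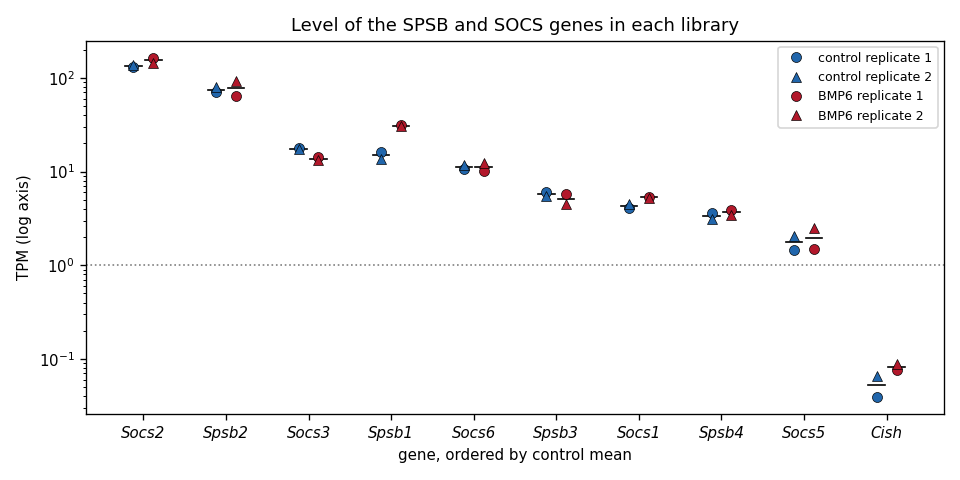
TPM (log axis) of each gene in each of the 4 libraries, with genes ordered by their control mean, black lines at group means and a dotted line at 1 TPM. Spsb1 lies at 30.7 and 31.1 TPM in the BMP6 libraries against 13.8 and 16.4 TPM in controls, while Cish stays under 0.1 TPM in all 4.

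Spsb1 showed the widest difference of the 10 genes. The TPM values, here and throughout in the order of replicate 1 and replicate 2, were 31.1 and 30.7 after BMP6 and 16.4 and 13.8 in the controls. Both BMP6 libraries were thus above both controls, and the BMP6 libraries lay closer to each other than the controls did. The group means were 30.9 ± 0.260 and 15.1 ± 1.83 TPM (SD, n = 2 each), a ratio of 2.05, with 1.90 in the replicate 1 pair and 2.23 in the replicate 2 pair. On the scale of log2(TPM + 1), where the fit across all entries was made, the difference was 0.99 (SE 0.12), with 0.89 and 1.10 within the pairs.

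A gene was called when its difference on that scale reached a fold of 2 in either direction with an adjusted p under 0.1 in limma, adjusted by Benjamini-Hochberg across all 13128 entries whose mean reached 1 TPM. Of the 10645 entries eligible for a call, 24 were called higher (0.225%) and 0 lower (0%, with 1 entry lower past the fold at an unadjusted p under 0.05), and without regard to fold 0.272% passed the adjusted p. The difference of Spsb1 was just short of the fold and ranked at place 37 among those entries. Over 14 alternative settings it ran from 0.84 to 1.11, and it reached a fold of 2 in 5 of them, among these a pseudocount of 0.1 and voom, a weighted fit on rebuilt reads. Without control replicate 1 its difference was 1.11 and without control replicate 2 it was 0.88.

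The Spsb1 entry spans chr4:149980740-150039500 on the minus strand of GRCm39. Of its 3 annotated transcripts, ENSMUST00000038562.9 (3 exons) carried 98.6% to 99.4% of the TPM in every library. The higher level after BMP6 was seen along this whole transcript. Its first exon, counted from the 5′ end, had a mean depth of 33.2 and 30.1 after BMP6 and of 15.0 and 11.8 in controls. The last exon had a depth of 212 and 202 after BMP6 and of 113 and 89.3 in controls. Depth is the mean number of aligned bases over each base, not scaled to library size. Depth was lowest at the first exon in all 4 libraries. The non-coding gene Gm13070 overlaps 103 exonic bases of Spsb1 on the other strand, but it stayed at or below 0.0357 TPM.

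**Figure D2:**
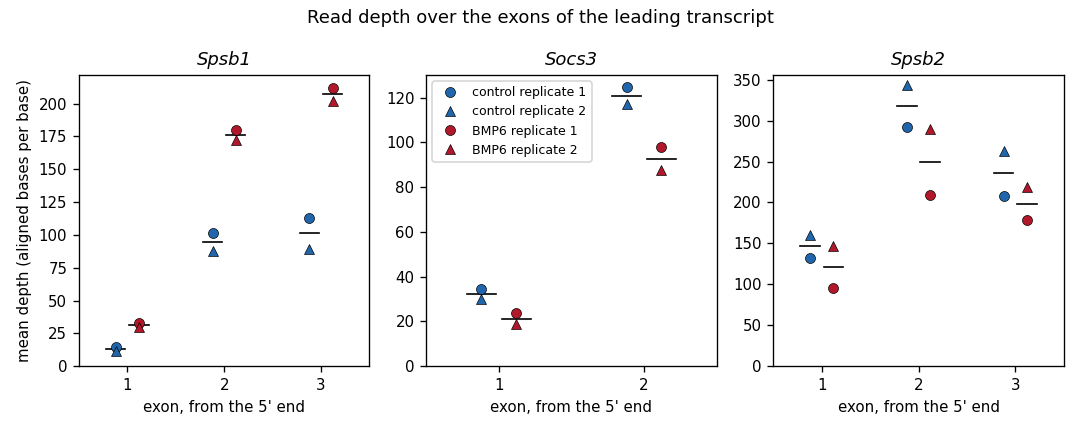
Mean read depth (aligned bases per base, axis from 0) over each exon of the leading transcript of Spsb1, Socs3 and Spsb2, as assigned to that transcript, with points for libraries and black lines for group means. In Spsb1 every exon is higher in both BMP6 libraries, in Socs3 both exons are lower in both, and in Spsb2 the groups overlap at the first and last exon.

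Socs3 was the gene with the widest difference downwards. It had 14.2 and 13.2 TPM after BMP6 and 17.9 and 17.3 TPM in controls, so that both BMP6 libraries were below both controls. The means were 13.7 ± 0.699 and 17.6 ± 0.409 TPM (SD, n = 2 each), with a log2 difference of -0.34 (SE 0.12) and -0.31 and -0.37 within the pairs. It was not called. Socs3 has a single transcript, and both of its exons were lower after BMP6. Its first exon had a depth of 23.8 and 18.7 after BMP6 against 34.7 and 29.9 in controls, and its last exon had 97.8 and 87.5 against 125 and 117. The entry lies at chr11:117856905-117860012 on the minus strand.

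The promoters of Spsb1 and Socs3 are shown because these genes differed most, in opposite directions. They are RefSeq sequences of build GRCm38.p6, from 250 bases before to 50 bases after the RefSeq start, written 5′ to 3′ on the gene's strand. An exact match placed each once in GRCm39, Spsb1 at chr4:150039414-150039713 and Socs3 at chr11:117860143-117860442, both on the minus strand. Capitals mark matches to TTCNNNGAA, the core bound by STAT dimers, or to GGCGCC, a GC-rich motif bound by BMP-activated SMADs. GTCTG, the SMAD box, was searched too, all on both strands.
Spsb1 promoter: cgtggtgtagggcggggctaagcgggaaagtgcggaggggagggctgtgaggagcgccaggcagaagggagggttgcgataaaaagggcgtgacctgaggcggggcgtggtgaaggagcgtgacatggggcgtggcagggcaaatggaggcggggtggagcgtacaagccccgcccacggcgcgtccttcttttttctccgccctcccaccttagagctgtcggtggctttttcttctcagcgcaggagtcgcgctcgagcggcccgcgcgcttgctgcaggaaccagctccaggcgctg
Socs3 promoter: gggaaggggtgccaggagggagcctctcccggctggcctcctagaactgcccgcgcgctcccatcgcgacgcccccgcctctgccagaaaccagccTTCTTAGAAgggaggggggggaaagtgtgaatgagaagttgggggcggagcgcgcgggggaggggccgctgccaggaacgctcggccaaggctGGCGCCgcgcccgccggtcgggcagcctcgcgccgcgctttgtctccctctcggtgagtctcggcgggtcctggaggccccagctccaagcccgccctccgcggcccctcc

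No letters are in capitals in the Spsb1 promoter, and GTCTG was not in this window either. The Socs3 promoter held TTCTTAGAA at -154 and GGCGCC at -61, counted from the RefSeq start as 0, and these motifs did not overlap. The RefSeq start itself lay at 37 in Spsb1 and at -180 in Socs3, counted from the start of the leading transcript. Of the 32851 promoters of the same length, 8.3% held TTCNNNGAA, 11.9% held GGCGCC and 49.6% held GTCTG. Cish, the classical STAT5 target among these genes, held a pair of STAT cores, TTCCTGGAA at 0 and TTCTTGGAA at 11, and its RNA was close to 0. The Cish RefSeq start lay at 633 from the start of its leading transcript, inside the first exon. GGCGCC was also present in Spsb4 and GTCTG in Spsb2 and Spsb3, and Socs1 held none of the 3 motifs. Counted from the start of the leading transcript, the Spsb3 windows with GTCTG had RefSeq starts at -698 and 801. Those with starts at -37 and -6 held none. The RefSeq start of Spsb4 lay at 488, inside its first exon of 650 bases. Those of Spsb2 lay at 224 and 257, past the first exon of its leading transcript, which has 119 bases. Both Spsb2 windows, chr6:124785598-124785897 and chr6:124785631-124785930, held the start of another Spsb2 transcript, ENSMUST00000052727.5, at 124785869. Promoters of 7 of the 10 genes were in the table used, not of Socs2, Socs5 and Socs6, and it holds more than 1 start for Spsb2 and Spsb3. These matches are a description of letters, and binding was not measured in the libraries used here.

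Socs1, a potent inhibitor of interferon signalling, was at 5.41 and 5.27 TPM after BMP6 and at 4.12 and 4.48 TPM in controls. The groups did not overlap, but the log2 difference was small, at 0.26 (SE 0.14), with 0.32 and 0.20 within the pairs. Its 2 transcripts share their first exon and overlap in the last, and the depth of the first exon, summed over transcripts, was 18.0 and 14.0 after BMP6 against 11.4 and 8.84 in controls. The Socs1 entry is at chr16:10600104-10603400 on the minus strand.

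Socs2 was at 165 and 145 TPM after BMP6 and at 131 and 137 TPM in controls. The groups did not overlap, yet the within-pair differences were uneven, at 0.33 and 0.08, around a mean of 0.20 (SE 0.10). The depth of its first exon in the leading transcript overlapped between groups, with 183 and 138 after BMP6 against 149 and 149 in controls. ENSMUST00000020215.16 carried 95.7% to 97.0% of its TPM. A pseudogene copy, Gm9847, matches Socs2 over 599 bases at 99.5% identity and was listed at 69.6 and 61.9 TPM after BMP6 and at 57.4 and 57.7 TPM in controls. Reads from either copy could have been counted for the other, so the level of Socs2 (chr10:95247352-95252719, minus strand) is uncertain.

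Cish (chr9:107173225-107179983, plus strand), which encodes CIS, was at 0.0760 and 0.0892 TPM after BMP6 and at 0.0390 and 0.0665 TPM in controls. These values rest on 17 and 20 rebuilt reads after BMP6 and on 9 and 15 in controls. Cish was the 1 member below the minimum of 1 TPM and was not tested. Its first exon had a depth of 0 in both controls, and a difference was not detectable at this depth.

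Of the remaining SOCS genes, Socs5 and Socs6 showed groups that overlapped. Socs5 (chr17:87415107-87445267, plus strand) was at 1.47 and 2.47 TPM after BMP6 and at 1.46 and 2.07 TPM in controls, and both replicate 2 libraries were above both replicate 1 libraries. The log2 difference between BMP6 and control was 0.09 (SE 0.22), and it turned to -0.15 without BMP6 replicate 2 and to -0.07 without control replicate 1. Socs6, on chromosome 18, was at 10.1 and 12.4 TPM after BMP6 and at 10.7 and 11.9 TPM in controls. Its log2 difference was -0.01 (SE 0.15), with -0.08 and 0.06 within the pairs, and it turned to 0.07 with voom on rebuilt reads. A pseudogene, Gm9449, matches Socs6 over 1006 bases at 96.7% identity with a mean of 3.08 TPM.

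Spsb2 was abundant but did not differ between the groups beyond their spread. It had 63.4 and 93.5 TPM after BMP6 and 69.9 and 79.9 TPM in controls, so the BMP6 libraries lay on either side of the controls. The log2 difference was 0.04 (SE 0.19), with -0.14 and 0.22 within the pairs, and it ran from -0.23 without BMP6 replicate 2 to 0.32 without BMP6 replicate 1. The make-up of its transcripts was less even. ENSMUST00000052727.5, which starts at a first exon of its own, was assigned 20.4 and 30.4 TPM after BMP6 and 14.3 and 15.9 TPM in controls, or 32.15% and 32.6% of the gene after BMP6 against 20.5% and 19.9% in controls. The depth of that first exon was 35.2 and 35.4 after BMP6 and 29.5 and 28.8 in controls. The first exon of the leading transcript ENSMUST00000047760.10 had 95.6 and 147 against 132 and 161. StringTie divides reads of the shared exons between transcripts, so the TPM of a transcript rests on that division wherever an exon is shared. The Spsb2 entry (chr6:124785624-124787582, plus strand) shares 34 exonic bases with Tpi1 on the other strand, which lay at 1528 to 2013 TPM.

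**Figure D3:**
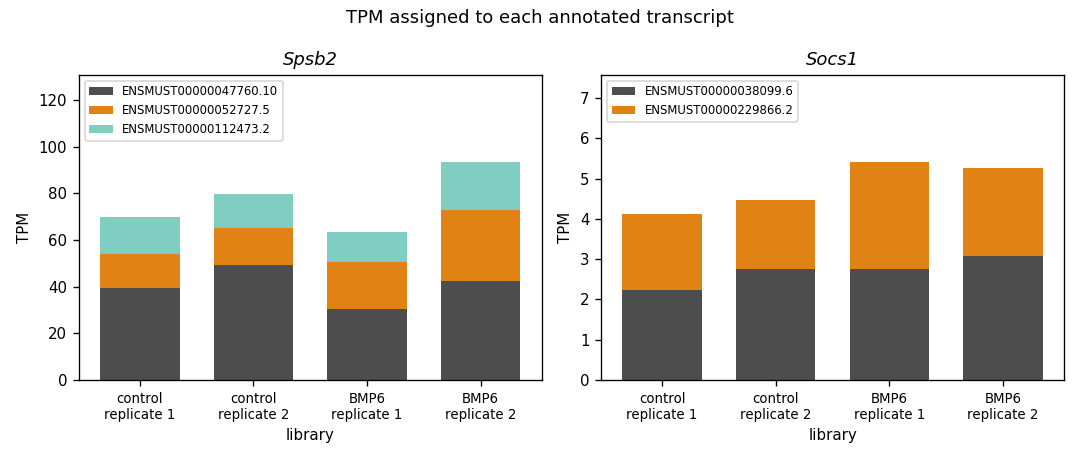
TPM assigned to each annotated transcript of Spsb2 and Socs1 in each library, stacked, so that the bar height is the TPM of the gene. The Spsb2 transcript ENSMUST00000052727.5 takes 32.15% and 32.6% of the bar after BMP6 and 20.5% and 19.9% in controls.

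Spsb3 and Spsb4 were low and differed little. Spsb3 (chr17:25105617-25111123, plus strand) had 5.74 and 4.50 TPM after BMP6 and 5.99 and 5.52 TPM in controls, a log2 difference of -0.15 (SE 0.16). Of its exonic bases, 59.6% are shared with Eme2, a nuclease subunit gene on the other strand at 18.6 to 19.9 TPM. In GENCODE M39, transcripts of Nubp2, an iron-sulfur assembly factor gene with a mean of 69.4 TPM, match it over 775 bases at 100% identity. In the annotation behind the deposited values, however, no exon of Nubp2 lay within the Spsb3 entry. The libraries were unstranded, so reads of Spsb3 and Eme2 cannot be told apart in the bases they share. Outside those bases, the exon at chr17:25106754-25106891 stood out in depth, summed over transcripts. It had 184.5 and 141.3 after BMP6 and 185 and 174.1 in controls. The last exon, part of the overlap, had 14.8 and 9.71 after BMP6 and 14.9 and 13.4 in controls. The level of Spsb3 thus leans on a short exon, and why its depth was high was not tested. Spsb4 (chr9:96825535-96900896, minus strand) had 3.90 and 3.42 TPM after BMP6 and 3.61 and 3.12 TPM in controls, a log2 difference of 0.09 (SE 0.15). Its groups overlapped, although it was higher within each pair. The non-coding Gm16010 overlaps 23.9% of its exonic bases on the other strand, at or below 0.0480 TPM.

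Of the 10 genes, 9 passed the minimum of 1 TPM and 0 of these were among the calls in limma, and 0 with the replicate block, where 0.338% of eligible entries were called higher and 1.64% passed the adjusted p in either direction. Groups did not overlap for 3 genes that were higher (Spsb1, Socs1 and Socs2), where 17.4% of all eligible entries lay above in this way, and for 1 that was lower (Socs3), where 10.8% lay below. Within both pairs, 5 of the 9 were higher, beside 36.7% of all eligible entries, and 2 were lower, beside 24.7%. The median log2 difference of the 9 was 0.09 and that of all 13128 tested entries was 0.02. Nothing is read from these counts, because the genes were selected on the same comparison.

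**Figure D4:**
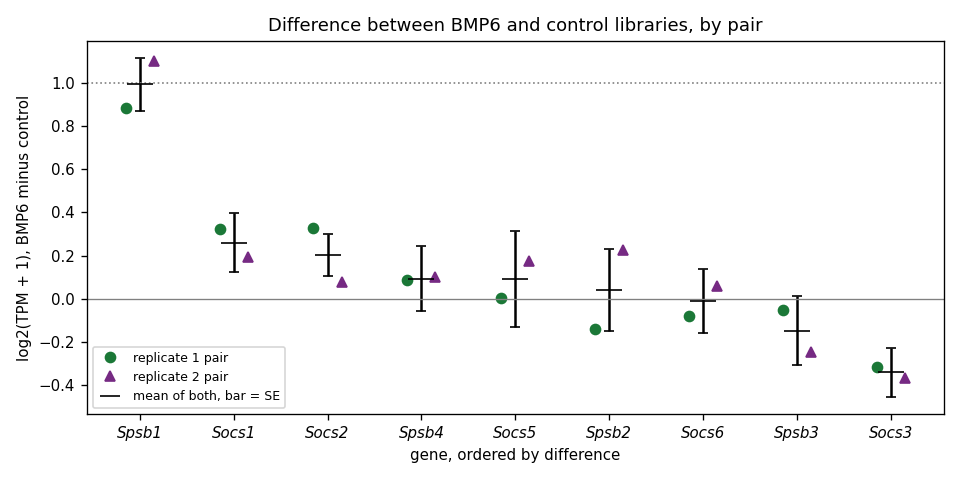
Difference between BMP6 and control on the log2(TPM + 1) scale for the 9 tested genes, with a point for each pair of same-numbered libraries and the mean with its SE from limma; the dotted line marks a fold of 2. Both Spsb1 points lie near that line, at 0.89 and 1.10, and both Socs3 points lie below 0.

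The batches offered a comparison that played no part in the choice of the genes. Replicate 2 was compared with replicate 1 in limma with the treatment in the fit. Of the 9 tested genes, 2 passed the adjusted p (22.2%), where 20.6% of all eligible entries did, and 0 were called with the fold of 2. At an unadjusted p under 0.05 the number was the same, and these were Spsb2 and Socs5. Spsb2 had a mean of 66.6 TPM in the replicate 1 libraries and of 86.7 TPM in the replicate 2 libraries, a log2 difference of 0.37 (SE 0.09, limma adjusted p = 0.0334), and was higher in replicate 2 in both groups. Socs5 had 1.47 and 2.27 TPM, a log2 difference of 0.40 (SE 0.13, limma adjusted p = 0.0822), and was also higher in replicate 2 in both groups. In eBayes without a trend Spsb2 lost this result (adjusted p = 0.135), and under quantile normalization Socs5 did (adjusted p = 0.115). Without a filter on low values both did (adjusted p = 0.225 and 0.332). For Spsb1 the replicates differed by -0.12 (95% interval -0.33 to 0.08) and for Socs3 by -0.07 (95% interval -0.27 to 0.13).

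The entries whose profile over the 4 libraries was nearest to that of Spsb1 were Cxcr4, Spry2, Tmem119, Fam78a and Enc1. Likeness was the Euclidean distance between centred log2(TPM + 1) values over 4 libraries, and it ran from 0.102 for Cxcr4 to 0.204 for Enc1 among 10644 entries compared. Spry2, an inhibitor of receptor tyrosine kinase signalling, was at 53.0 and 52.6 TPM after BMP6 and at 30.7 and 25.8 TPM in controls. Cxcr4, a chemokine receptor gene, had 2.98 and 3.27 TPM after BMP6 and 1.32 and 1.01 TPM in controls. In both genes, as in Spsb1, the BMP6 libraries lay above the controls and close to each other, which follows from their choice by likeness to Spsb1.

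Genes around the SOCS box proteins were examined in 9 lists, which held 111 genes. Of these 108 were entry names and 82 were tested. The difference was above 0 in 52 and below 0 in 30. These signs, like those within each list, are a tally, since the median of all tested entries was also above 0, at 0.02. Past the adjusted p was 1 gene. That gene was Junb, an AP-1 factor that STAT3 can induce and that was listed among other STAT-induced genes. It rose from 108 and 120 TPM in controls to 301 and 297 TPM after BMP6, a log2 difference of 1.39 (SE 0.09, limma adjusted p = 0.0132). In the other 8 lists 0 of 71 tested genes passed the adjusted p in limma or in voom on rebuilt reads, and 2 had an unadjusted p under 0.05, Lifr and Nr1d1.

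The ligase core, which carries the SOCS box proteins, was abundant and even. All 10 genes were tested, 10 had a difference above 0, the widest being 0.25 (SE 0.16) for the scaffold Cul5, and the median was 0.07. Elob, the adaptor Elongin B, was the highest with 624 and 669.5 TPM after BMP6 and 592 and 635 TPM in controls. Of 26 other SOCS box genes 16 were tested, with a median of 0.02. Asb5, an ankyrin repeat member of the SOCS box family, was at 694 and 607 TPM after BMP6 and at 704 and 636 TPM in controls, above each of the 10 SPSB and SOCS genes in all 4 libraries. Socs4 had the widest difference of that list, at 0.26 (SE 0.16).

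Upstream of the SOCS genes, most receptor genes were present and most cytokine ligands were low. Of 8 ligands 3 were tested, and Clcf1, a gp130 cytokine, was the highest at 78.96 to 83.9 TPM. Lif stayed at or below 0.601 TPM, with groups that overlapped, and Osm was listed at 0 in all 4 libraries. Of 18 receptor genes 13 were tested, with a median of 0.08. Lifr, the LIF receptor, was at 3.602 and 5.09 TPM after BMP6 and at 2.57 and 3.08 TPM in controls, a log2 difference of 0.47 (SE 0.19, limma adjusted p = 1.00). Ifngr1, an interferon-γ receptor chain, was the highest at 55.1 to 68.6 TPM.

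Among JAK kinases and STAT factors 9 of 11 genes were tested, with a median of 0.05. Stat3, the main factor upstream of Socs3, was at 104 and 122 TPM after BMP6 and at 107 and 114 TPM in controls, a log2 difference of 0.03 (SE 0.11). Stat2 had the widest difference, at -0.26 (SE 0.21). Of the 9 other JAK-STAT inhibitors all were tested, with a median of 0.00, and the adaptor Sh2b3 had the widest difference at -0.26 (SE 0.18), while the phosphatase gene Ptpn2 was the highest at 59.4 to 66.4 TPM.

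The other STAT-induced genes did not move together. Of 12 genes 11 were tested, and their differences were above 0 in 4 and below 0 in 7, with a median of -0.05. Timp1, an inhibitor of matrix proteases, had the highest mean of this list, at 214 to 226 TPM in controls and at 196 to 219 TPM after BMP6. With the replicate block, 4 genes of the 9 lists passed the adjusted p. These were Junb, Bcl3 (log2 difference 0.45, adjusted p = 0.0385), Myc (log2 difference -0.45, adjusted p = 0.0303) and Nr1d1 (log2 difference -0.51, adjusted p = 0.0557), the middle pair named after their values were seen.

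Of the partners that SPSB proteins bind, 4 of 8 were tested. Nr1d1, the circadian repressor REV-ERBα, which SPSB4 can target, was at 11.1 and 10.99 TPM after BMP6 and at 17.7 and 14.7 TPM in controls, a difference past the adjusted p with the block and not without it. Hnrnpa1 was the highest, at 442 to 503 TPM. Tgfbr2, the receptor on which SPSB1 acts, named after its values were seen, was at 6.87 and 7.04 TPM after BMP6 and at 7.96 and 6.80 TPM in controls. Nos2, another SPSB1 partner, stayed at or below 0.0347 TPM. Of 9 receptor and adaptor targets of SOCS proteins 7 were tested, with differences between -0.19 for Irs1 and 0.06 for Fgfr1, which was also the highest at 37.0 to 41.4 TPM.

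As a check of the stimulus, 4 of 5 BMP response genes passed the adjusted p, and all 5 did with the block. Id3, an inhibitor of bHLH factors, rose from 127 and 158 TPM in controls to 841 and 730 TPM after BMP6, a log2 difference of 2.46 (SE 0.13, limma adjusted p = 0.0104). Id1, Id2 and Smad7 rose as well, with log2 differences of 2.33, 1.26 and 2.01. The difference of Spsb1 was thus smaller than that of each of these 4 genes.

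**Figure D5:**
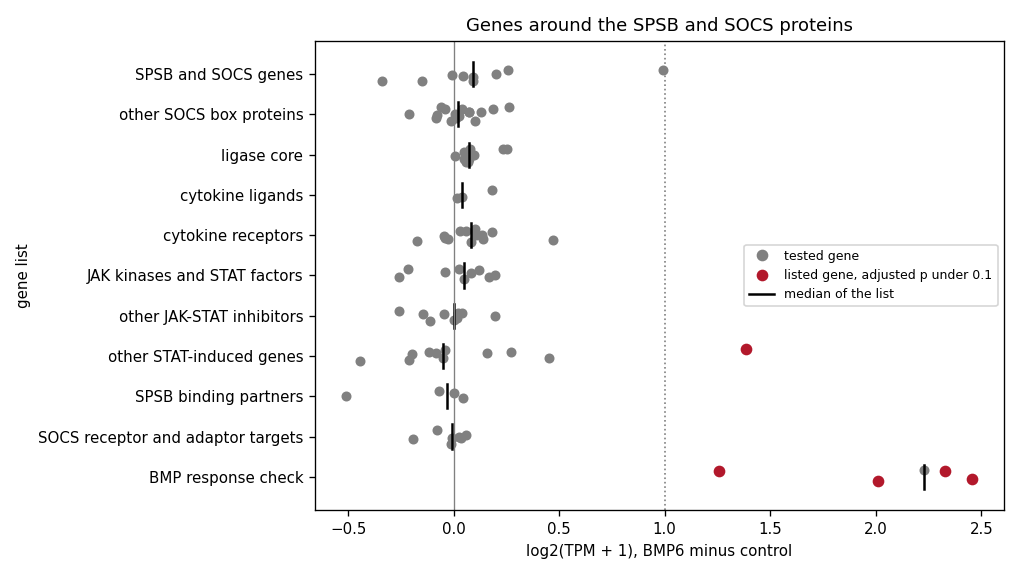
Difference between BMP6 and control on the log2(TPM + 1) scale for each tested gene, by list, with a black line at the list's median and a dotted line at a fold of 2. Red marks listed genes past the adjusted p, which are Junb and 4 BMP response genes; the SPSB and SOCS genes are drawn without a test.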

How the data were processed

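RNA-seq of 4 libraries of cultured MuSCs was analysed from the deposited files. Per the study's methods, the authors prepared unstranded Smart-seq2 and Nextera XT libraries, aligned paired 100-base reads to GRCm39 (GENCODE annotation) and quantified each library against merged transcripts. The submitters' processing notes name STAR 2.7.11a, SAMtools 1.17 and StringTie 2.2.1. Per the file headers, StringTie's correction for reads aligned to several places was switched off, so reads shared with copies count for each. The authors deposited TPM per gene, which sum to 1000000 per library, and FPKM per gene. The signal they deposited per transcript and exon is coverage, not scaled to library size.

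Read numbers were rebuilt as coverage times length divided by 100. Smart-seq2 adds no molecular identifiers, so these are not counts of molecules, no counting interval is given, and the low genes are the least precise. The files hold no counts, so the authors' DESeq2 was replaced by limma 3.58.1 (R 4.3.3; lmFit, eBayes with a trend), run two-sided and unblocked on log2(TPM + 1) over the 13128 entries with a mean of at least 1 TPM. This scale understates the fold of low genes. Calls needed an adjusted p under 0.1 and a fold of 2 or more, or of 0.5 or less. After the study's rule, the 2483 tested entries that had no name or carried names of predicted, microRNA, opposite-strand, Rik or pseudogene type were not called. P-values rest on the residual spread of the 4 libraries, moderated by eBayes across all 13128 entries. In the unblocked fit this residual is the spread between 2 libraries a group. With the replicate in the fit it is what treatment and replicate leave. The fit was tested on simulated data.

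The labels' batch pairs same-numbered libraries. Their deviations from group means had a correlation of 0.563 across tested entries, and the first component (54.3% of variance) separated replicate numbers, while the next (31.7%) separated treatments.

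Copies were searched with blastn 2.17.0 (at least 100 bases at 95% identity) in GENCODE M39 transcripts. The 10 genes and the lists were chosen with earlier results of these data known. Named from each list were genes past the adjusted p (up to 5), the gene with the widest difference and the gene with the highest mean TPM, and in addition the 5 entries nearest to the gene with the widest difference. Any other gene is said to be named after its values were seen, apart from markers, overlapping genes and copies, and from Lif, Osm and Nos2, which are given for their low levels. Alternatives were the replicate block, other pseudocounts, filters, scalings, voom, and leaving out each library.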

Additional observations from a re-analysis of the deposited data

Results flagged for a closer look

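A minor Spsb1 transcript, ENSMUST00000105685.2, gave a signal in the BMP6 libraries and none in controls, in transcript values, outside the comparison of gene levels. It was assigned 0.255 and 0.0711 TPM after BMP6, a mean of 0.163 TPM, and was listed at 0 in both controls. Its own exon had a depth of 2.83 and 0.875 after BMP6 and of 0 in both controls. It took 0.820% and 0.231% of the Spsb1 TPM after BMP6, and the difference was not tested. All these values are close to 0, so absence in controls cannot be told apart from a level too low to be seen.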

How the results depend on the processing

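The number of entries called higher, 24, moved to 15 with a pseudocount of 5 and with a minimum mean of 5 TPM, to 12 in eBayes without a trend, to 0 without a filter on low values and to 56 in voom on rebuilt reads with the replicate block, and it ran from 17 to 30 when 1 library was left out. Entries called lower, 0, came to 1 with the replicate block, to 6 in voom with the block and to between 1 and 7 with 1 library left out. Of the 10 genes, 0 were called, with 1 (Spsb1) at a pseudocount of 0.1 and 1 (Spsb1) in voom with the replicate block. List genes past the adjusted p, 1, came to 4 with the replicate block, to 5 in voom with the block (Lifr added) and to 0 without a filter. Entries called between replicates, 50, came to 100 with a pseudocount of 0.1, 26 with a pseudocount of 5, 29 without a filter and 107 in voom. The difference of Socs1 between replicates turned from 0.032 to -0.025 under quantile normalization. The cause of these shifts was not tested. Leaving out a library of the replicate comparison leaves no residual degrees of freedom and was not run. The differences between BMP6 and control of Spsb1, Spsb3, Spsb4, Socs1, Socs2 and Socs3 kept their sign in every alternative run, and those of Spsb2, Socs5 and Socs6 did not. Voom assumes counts, and rebuilt reads are not independent. With 2 libraries a group, a lone library left after leaving one out is assumed to vary like the others.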
